A study of Homo sapiens with 30 samples.

Results

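The genes described here are the 9 of the MYC and MAX network whose names were looked up in the deposited count table, out of 58780 genes in all. They are MYC and MYCL, their partner MAX, the repressors MXD1, MXD3, MXD4, MXI1 and MNT, and the MAX-like factor MLX. All 9 had rows in the table, and all 9 passed the filter on low counts that left 22919 genes for testing.

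MYC and MAX are basic helix-loop-helix leucine zipper proteins that pair through their zippers and bind a short DNA element, the E-box CACGTG. MYC with MAX mostly raises transcription of genes for ribosome production, nucleotide synthesis and growth, whereas the MXD proteins, MXI1 and MNT pair with MAX at the same element and recruit SIN3 corepressors. MLX is a partner of the glucose-sensing factors MLXIP and MLXIPL and also pairs with MNT, MXD1 and MXD4. The MYC transcript is short-lived, and the gene responds within minutes to many hormones and growth factors, so a measurement of transcription itself follows it closely.

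Nascent transcription was measured by PRO-seq, a run-on assay that labels RNA held by engaged polymerases, in A549, a lung adenocarcinoma cell line. Every group had 2 libraries, and all groups were in 0.01% DMSO. Untreated cells, labelled with a time of 15 min, were the control. Dexamethasone (Dex), a synthetic glucocorticoid, was given at 100 nM for 15 min or 3 h. It was also given for 3 h together with 1 µM GSK591, an inhibitor of the type II arginine methyltransferase PRMT5, or with 1 µM MS023, an inhibitor of the type I enzymes. Each inhibitor was further given alone at 1 µM for 2, 4 or 7 days. The remaining groups received 7 days of an inhibitor followed by 15 min or 3 h of Dex. No untreated group of a longer time was analysed here, so time in culture and exposure cannot be told apart in comparisons with untreated cells. The labels do not say that replicates were separate cultures, and p-values then measure only the spread between these samples.

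Total counts per library ran from 8441211 to 13069598 with a median of 10141639.5, and mitochondrial genes took 58.7% to 78.7% of them. Levels are given as CPM, counts scaled to the library size, after scaling by the trimmed mean of M values (TMM), and a gene was called when its edgeR quasi-likelihood adjusted p (Benjamini-Hochberg over all 22919 genes) was under 0.05. With 2 libraries per group a permutation of 1 comparison cannot reach that threshold, so the calls rest on the spread shared by all 15 groups. The mitochondrial share was 73.4% and 76.0% in untreated cells and 58.7% and 59.6% after 7 days of MS023. Scaling by total counts alone moved the median log2 fold change of all genes by 1.02 in that comparison. TMM-scaled changes are changes relative to the bulk of tested genes. All 10 A549 markers were well expressed, from 29.2 CPM for NQO1 to 232 CPM for KRT7 as medians over libraries, and CDKN2A and CDKN2B, deleted in this line, had at most 3 counts. Of the markers of other cell types, PTPRC, CD3E, CD68, PECAM1, VWF, COL1A2, DCN and ALB had medians under 1 CPM and the fibroblast gene COL1A1 3.93 CPM. The proliferation marker MKI67 ran from 111 to 2136 counts, and its part in the results below was not tested. In such bulk libraries fewer transcribing cells and less transcription per cell cannot be told apart. Counts per gene also do not show where along a gene the engaged polymerases were.

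Coordinates and exons were taken from GENCODE 29, which carries every gene identifier of the table. MAX spans 96522 bases of chromosome 14 and MXI1 79761 bases of chromosome 10, with exons over 4.59% and 5.78% of that length. MNT lies on chromosome 17 from 2384060 to 2401118, and 12.2% of its exonic bases overlap the opposite-strand gene AC006435.1. MXD4 lies on chromosome 4 from 2247432 to 2262294 with 1.13% of exonic bases overlapped. MLX shares 18.1% of its exonic bases with PSMC3IP on the other strand. MXD3, on chromosome 5, shares 40.4% with RAB24 on the same strand and PRELID1 on the other, and the use of strand in counting is not given in the sources used here. Counts for MXD3 are therefore uncertain, and so, over a smaller overlap, are those for MLX and MNT, whose reads cannot be told apart from those of their opposite-strand partners if strand was not used.

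RefSeq promoters of 300 bases (GRCh38.p14, from 250 before to 50 after the start) were given for 8 of the 9 genes, 11 promoters in all. The E-box CACGTG, which reads the same on both strands, was found in 3 of these 11 and in 7.256% of 35116 promoters of that length. Those 3 belong to MXD4, MNT and MLX. Members without the element, such as MXD1 and MXD3, were also called in comparisons below. The stretch before the annotated gene that holds each element is shown because it is the element the network itself binds. Capitals mark the E-box, and each sequence reads 5′ to 3′ on the strand of the gene.
MXD4, chr4:2262295-2262359, minus strand: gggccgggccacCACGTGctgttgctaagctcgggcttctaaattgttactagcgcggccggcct
MNT, chr17:2401188-2401310, minus strand: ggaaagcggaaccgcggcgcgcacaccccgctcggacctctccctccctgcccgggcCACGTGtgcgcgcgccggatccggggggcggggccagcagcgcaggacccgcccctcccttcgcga
MLX, chr17:42566990-42567067, plus strand: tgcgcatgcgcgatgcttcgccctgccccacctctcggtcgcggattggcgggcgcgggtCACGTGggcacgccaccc
The E-box begins 238 bases before the RefSeq start in MXD4, 193 before it in MNT and 50 before it in MLX. A match of letters is a description of the sequence and does not show binding in these cells.

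Per kilobase of exon, MYC had the highest level of the 9 genes in A549 cells. Whether exons or whole genes were counted is not given in the sources used here, and the values per kilobase of exon hold only for counts over exons, above all for MAX and MXI1. Its median over 30 libraries was 27.7 CPM per kb, against 7.22 for MLX, 6.01 for MXD3 and 3.33 for MNT. The level per kilobase was 2.06 CPM for MXD1, 1.70 for MXD4, 1.55 for MXI1, 1.37 for MAX and 0.820 for MYCL. Within a gene, the group with the highest mean exceeded the lowest by 1.80-fold for MXD3 to 2.92-fold for MXD4. MYCL had only 18 to 108 counts per library, MXI1 34 to 115 and MAX 35 to 99, so smaller differences in these 3 genes were not detectable at this depth.

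**Figure D1:**
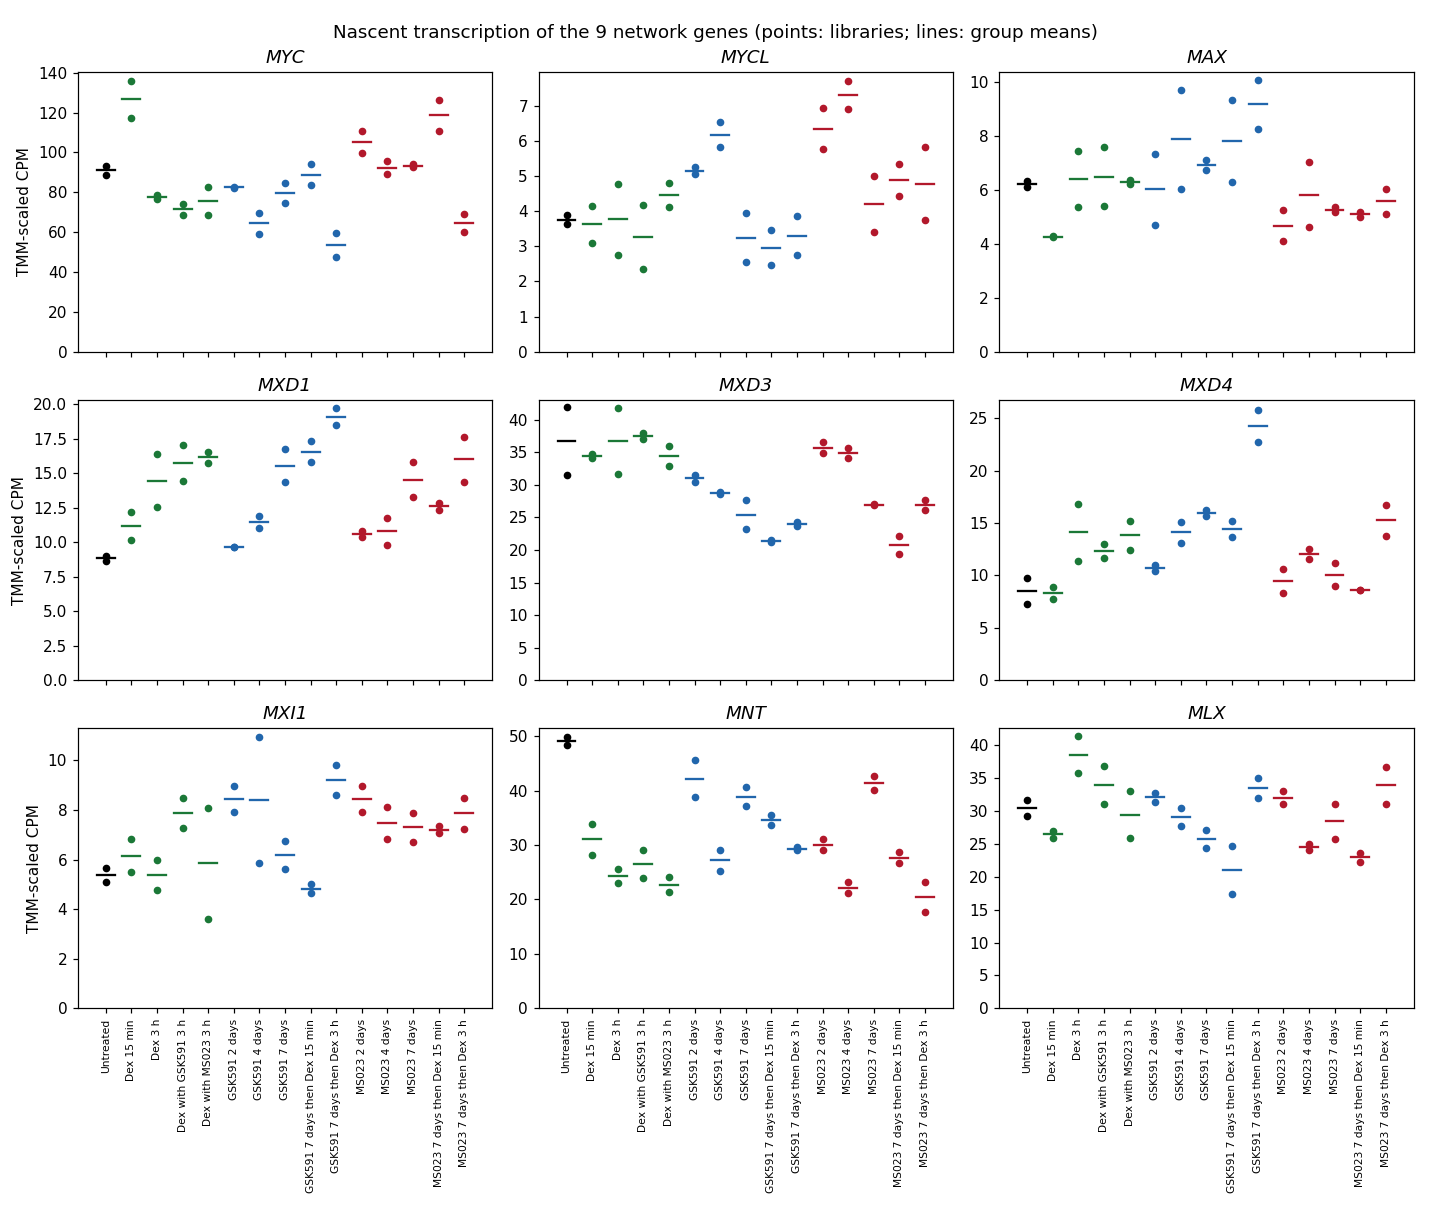
TMM-scaled CPM (vertical axes, each from 0) of the 9 genes in each of the 15 groups (horizontal axes); points are libraries and lines are group means. MYC is highest after 15 min of Dex, at 117 and 136 CPM, and MNT is highest in untreated cells, at 49.8 and 48.4 CPM.

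MYC, the network's main activator, rose within 15 min of Dex and was lower again at 3 h. The gene (ENSG00000136997.17) is on chromosome 8 from 127735434 to 127741434 on the plus strand, and none of its 3001 exonic bases is shared with another gene. In untreated cells it stood at 93.3 and 88.8 CPM, after 15 min of Dex at 117 and 136 CPM, and after 3 h at 76.4 and 78.6 CPM. Both 15 min libraries lay above, and both 3 h libraries below, the untreated ones. At 15 min 2 of the 9 genes were called, MYC higher and MNT lower, where 1.26% of all tested genes were called. The rise of MYC had a log2 fold change of 0.48 (SE 0.11, adjusted p = 0.0131). This call was lost without untreated replicate 1 (adjusted p = 0.105), without untreated replicate 2 (0.215) and without Dex 15 min replicate 2 (0.464). At 3 h the log2 fold change of MYC against untreated cells was -0.23 (adjusted p = 0.218) and did not pass.

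Between 15 min and 3 h of Dex MYC fell in each of the 3 settings where both times were measured. These 3 comparisons were added after the values were seen. Without inhibitor MYC fell by 0.71 on the log2 scale (adjusted p = 1.13e-05). After 7 days of GSK591 it stood at 84.6 and 74.5 CPM before Dex, 94.1 and 83.5 CPM at 15 min and 59.8 and 47.3 CPM at 3 h, a fall by 0.73 between the Dex times (adjusted p = 8.39e-06, but 0.108 with total counts as the only scaling). After 7 days of MS023 the values were 92.6 and 93.9 CPM before Dex, 111 and 127 CPM at 15 min and 60.3 and 69.1 CPM at 3 h, with a log2 fold change of -0.87 (adjusted p = 7.37e-08). In all 3 settings both 3 h libraries lay below both 15 min libraries. Called genes in these comparisons made up 10.8%, 14.2% and 12.9% of those tested, and 3, 4 and 5 of the 9 network genes were called.

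Against cells with the same inhibitor and no Dex, MYC was called lower at 3 h in both pretreated settings. The log2 fold change was -0.57 after GSK591 (SE 0.12, adjusted p = 0.000470) and -0.53 after MS023 (SE 0.11, adjusted p = 0.000647). With total counts as the only scaling these became -0.36 (adjusted p = 0.386) and -0.54 (0.156). The GSK591 value also missed the threshold without replicate 2 of GSK591 then Dex 3 h, at -0.41 (0.0683). At 15 min MYC was not called in either setting. The log2 fold changes were 0.16 after GSK591 and 0.35 after MS023.

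Of the 6 inhibitor treatments without Dex, only 4 days of GSK591 had a change of MYC against untreated cells that was called here. It stood at 59.3 and 69.6 CPM, below both untreated libraries, with a log2 fold change of -0.50 (SE 0.11, adjusted p = 0.00132). Total-count scaling put the value at -0.08 (0.820), in a comparison where that scaling moved the median of all genes by 0.42. Leaving out GSK591 4 days replicate 1 gave -0.40 (0.0630). At 2 days of GSK591 MYC was at 82.8 and 82.3 CPM and at 7 days at 84.6 and 74.5 CPM, both not called. Under MS023 it was at 99.6 and 111 CPM at 2 days, 89.2 and 95.6 CPM at 4 days and 92.6 and 93.9 CPM at 7 days, none of them called here. The authors' deposited table called MYC higher at 2 days of MS023, as given below. Compared at the same dose and time, MYC was lower under GSK591 than under MS023 at 4 days by 0.52 on the log2 scale (adjusted p = 0.00192). That difference missed the threshold without GSK591 4 days replicate 1 (0.116) or MS023 4 days replicate 2 (0.0527), and the differences at 2 and 7 days, -0.35 and -0.23, were not called.

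Ordered by group mean, MYC ran from 127 CPM (15 min of Dex) through 91.0 CPM (untreated) to 53.6 CPM (7 days of GSK591 then 3 h of Dex). Only 3 of the 14 neighbouring pairs in that order had libraries that did not overlap. MYC thus moved over a 2.36-fold range, and most groups next to each other could not be separated by their 2 libraries.

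MYCL, a MYC relative with a more restricted expression, stayed low. It stood at 3.89 and 3.63 CPM in untreated cells, at 6.89 and 7.69 CPM after 4 days of MS023, at 5.77 and 6.92 CPM after 2 days of MS023 and at 6.53 and 5.82 CPM after 4 days of GSK591. All 6 of those treated libraries lay above the untreated ones. Only 4 days of MS023 was called, with a log2 fold change of 0.95 (SE 0.26, adjusted p = 0.00948), and it missed the threshold without either untreated replicate (adjusted p = 0.0634 and 0.0917) or without MS023 4 days replicate 2 (0.0856). The values for 2 days of MS023 and 4 days of GSK591 were 0.76 (0.0672) and 0.72 (0.0667). At 7 days MYCL was at 3.95 and 2.55 CPM under GSK591 and 3.40 and 4.99 CPM under MS023, and these libraries overlapped the untreated ones.

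MAX, the partner that MYC and the MXD proteins share, was not called in any of the 24 comparisons fitted here. The authors' deposited tables, from another counting with a higher mean for MAX, called it higher in some groups, as given below. Untreated cells had 6.12 and 6.35 CPM. The lowest group was 15 min of Dex, at 4.24 and 4.30 CPM, with a log2 fold change of -0.54 (SE 0.26, unadjusted p = 0.0429, adjusted p = 0.623). GSK591 for 7 days followed by 3 h of Dex was the highest group, at 8.27 and 10.1 CPM. No neighbouring pair of groups in the order of MAX levels was free of overlap.

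MNT, the broadly expressed repressor that shares MAX with MYC, was highest in untreated cells and lower in every other group mean. It stood at 49.8 and 48.4 CPM in untreated cells, at 33.9 and 28.2 CPM after 15 min of Dex and at 25.6 and 23.0 CPM after 3 h. All 28 treated libraries lay below both untreated libraries, so each of these comparisons rests on the same 2 control libraries. At 15 min the log2 fold change was -0.66 (SE 0.12, adjusted p = 0.000616), but -0.54 (0.102) without Dex 15 min replicate 2 and -0.34 (0.484) with total-count scaling. At 3 h MNT fell by 1.01 on the log2 scale (SE 0.13, adjusted p = 3.63e-08), a level 2.02-fold lower than in untreated cells, and this call held in all 11 alternatives. At that time 3 of the 9 genes were called, where 10.5% of all tested genes were.

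The pretreated cells have their own controls. Against these, MNT was called lower with Dex at both times after MS023, but only at 3 h after GSK591. With 7 days of MS023 it went from 40.1 and 42.7 CPM to 28.7 and 26.6 CPM at 15 min and to 17.6 and 23.2 CPM at 3 h. The groups did not overlap, and the log2 fold changes were -0.58 (adjusted p = 0.00257) and -1.02 (adjusted p = 1.17e-08). At 15 min MNT was the only 1 of the 9 genes called, where 2.07% of all tested genes were, and the call was lost without MS023 7 days replicate 2 (0.0756) or MS023 then Dex 15 min replicate 2 (0.0978), or with total-count scaling (0.194). At 3 h the call held in all 11 alternatives, with 3 of the 9 genes called against 11.1% of all. In GSK591-treated cells of 7 days MNT went from 37.1 and 40.6 CPM to 33.6 and 35.5 CPM at 15 min and 29.1 and 29.6 CPM at 3 h. The 15 min value, -0.17, was not called. The 3 h value, -0.40 (adjusted p = 0.0348), was lost without any 1 of the 4 libraries, with adjusted p from 0.0744 to 0.230, with no filter on low counts (0.0696), with DESeq2 (0.120) and with total-count scaling (0.722). In that comparison 3 of the 9 genes were called against 9.85% of all.

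MNT was also lower after 2 days of MS023 and 4 days of either inhibitor alone. At 2 days of GSK591 its value against untreated cells was -0.22 (adjusted p = 0.325) and was not called. MNT stood at 31.1 and 29.1 CPM after 2 days of MS023, 21.2 and 23.1 CPM after 4 days of MS023 and 29.1 and 25.3 CPM after 4 days of GSK591. The log2 fold changes against untreated cells were -0.71 (adjusted p = 6.93e-05), -1.15 (1.22e-09) and -0.85 (1.27e-06). With total counts as the only scaling they were -0.03, -0.40 and -0.43 and not called, while that scaling moved the median of all genes by 0.68, 0.74 and 0.42. The mitochondrial share in these 6 libraries was 62.2% to 70.3%, lower than in untreated cells, and its part was not tested. At 7 days MNT was nearer the untreated level, at 37.1 and 40.6 CPM under GSK591 and 40.1 and 42.7 CPM under MS023. The values of -0.34 (0.0612) and -0.25 (0.174) did not pass here, whereas the authors' deposited tables, described below, called MNT lower in both. After 2 days MNT was higher under GSK591 (45.6 and 38.7 CPM) than under MS023 by 0.48 (adjusted p = 0.0207), where 2.69% of all genes were called. This was lost with DESeq2 (0.0829), with total-count scaling (0.814), and without GSK591 replicate 1 (0.351), MS023 replicate 1 (0.0890) or MS023 replicate 2 (0.230).

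MXD4, an antagonist linked to cells that leave the cycle, rose by 3 h of Dex. It stood at 7.23 and 9.77 CPM in untreated cells, 8.88 and 7.70 CPM after 15 min of Dex and 11.4 and 16.9 CPM after 3 h. Untreated and 15 min libraries overlapped, and both 3 h libraries lay above them. At 3 h MXD4 had risen by 0.72 on the log2 scale (SE 0.19, adjusted p = 0.00657), but 0.52 (0.184) without untreated replicate 1 and 0.41 (0.321) without Dex 3 h replicate 2. Following 7 days of GSK591, MXD4 went from 15.7 and 16.2 CPM to 25.8 and 22.7 CPM with 3 h of Dex, the highest of all groups. That rise was 0.61 (adjusted p = 0.0108), and after MS023 it was 0.60 (adjusted p = 0.00969), from 8.99 and 11.1 CPM to 13.8 and 16.8 CPM. Both were lost with DESeq2, at 0.0619 and 0.0588, the GSK591 value also without GSK591 7 days replicate 1 (0.109) or 2 (0.0601) or GSK591 then Dex 3 h replicate 1 (0.129). The MS023 value was lost without MS023 7 days replicate 1 (0.182) or MS023 then Dex 3 h replicate 2 (0.188), or with total-count scaling (0.214). From 15 min to 3 h of Dex, MXD4 rose by 0.76 without inhibitor, 0.74 after GSK591 and 0.83 after MS023 (adjusted p = 0.00403, 0.00115 and 0.000379). The last 2 held in all 11 alternatives, and the value without inhibitor was lost without Dex 15 min replicate 2 (0.0859) or Dex 3 h replicate 2 (0.247), or with total-count scaling (0.200).

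MXD4 was called higher than in untreated cells at 4 and 7 days of GSK591 alone. Under GSK591 it stood at 11.0 and 10.5 CPM at 2 days, 15.1 and 13.1 CPM at 4 days and 15.7 and 16.2 CPM at 7 days. All 6 libraries lay above the untreated ones, and the log2 fold change was 0.72 (adjusted p = 0.00341) at 4 days and 0.90 (adjusted p = 0.000454) at 7 days. The 7 day call held in all 11 alternatives, and the 4 day call was lost without untreated replicate 1 (0.125) or GSK591 4 days replicate 1 (0.0710). Under MS023 MXD4 was at 11.6 and 12.5 CPM at 4 days (0.50, adjusted p = 0.0552, and called in 6 of 11 alternatives) and 8.99 and 11.1 CPM at 7 days (0.24, 0.433). The difference between inhibitors at 7 days was 0.66 (adjusted p = 0.00814), where 9.38% of all genes were called. Total-count scaling turned it to -0.38 (0.174), against a shift of the median of all genes by -1.07. It also missed the threshold without GSK591 7 days replicate 1 (0.0556) or 2 (0.0717) or MS023 7 days replicate 1 (0.153).

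MXD1, another MAX partner that rises in differentiating cells, was lowest in untreated cells. It stood at 9.01 and 8.66 CPM there, 10.2 and 12.2 CPM after 15 min of Dex and 12.5 and 16.4 CPM after 3 h. All 4 Dex libraries lay above the untreated ones, and by 3 h MXD1 had risen by 0.70 on the log2 scale (SE 0.17, adjusted p = 0.00318). It was 0.51 (0.146) without Dex 3 h replicate 2. At 7 days MXD1 was at 16.7 and 14.3 CPM under GSK591 and 13.2 and 15.8 CPM under MS023, both clear of the untreated libraries, with log2 fold changes of 0.82 (adjusted p = 0.000551) and 0.72 (adjusted p = 0.00156). The MS023 value was 0.58 (0.0538) without MS023 7 days replicate 2, and the GSK591 value 0.80 (0.0526) with total-count scaling. Dex added no called change after either inhibitor. The 3 h values were 0.29 (adjusted p = 0.273) after GSK591 and 0.14 (0.642) after MS023.

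MXD3, an S-phase member of the family, was lower after 7 days of either inhibitor. It stood at 31.5 and 41.9 CPM in untreated cells and at 27.7 and 23.2 CPM under GSK591 and 26.8 and 27.1 CPM under MS023. The treated libraries lay below both untreated ones, with log2 fold changes of -0.53 (adjusted p = 0.00326) and -0.45 (adjusted p = 0.00921). After 4 days of GSK591 the values were 28.9 and 28.6 CPM and the change -0.35 (adjusted p = 0.0409). Untreated replicate 2 decided all 3, which were -0.30 (0.243), -0.22 (0.401) and -0.13 (0.647) without it. The value at 7 days of GSK591 was also lost without GSK591 7 days replicate 2 (0.104) and with total-count scaling (0.155), that at 7 days of MS023 without either MS023 replicate (0.0610 and 0.0546), and that at 4 days without either GSK591 replicate (0.128 and 0.161), with no filter (0.0879) and with DESeq2 (0.125). Total-count scaling turned the direction at 4 days of GSK591 to 0.05 and at 7 days of MS023 to 0.56 (adjusted p = 0.0201). Dex alone left MXD3 overlapping the untreated libraries at both times.

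MXI1, an MXD family member that competes with MYC for MAX, was called once. In cells given GSK591 for 7 days it stood at 4.64 and 5.00 CPM with 15 min of Dex and 9.81 and 8.60 CPM with 3 h, a log2 fold change of 0.93 (SE 0.26, adjusted p = 0.0122). The 4 libraries did not overlap. That call was lost without either 15 min library (0.0659 and 0.0877) or replicate 1 of the 3 h group (0.109). Against untreated cells (5.12 and 5.64 CPM) MXI1 had values of 0.65 at 2 days of GSK591 and 0.65 at 2 days of MS023, with adjusted p = 0.139 and 0.0928.

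MLX, which links the network to glucose-sensing partners, rose between 15 min and 3 h of Dex in all 3 settings. Without inhibitor it went from 26.9 and 25.9 CPM to 41.3 and 35.8 CPM, after GSK591 from 24.7 and 17.4 CPM to 35.1 and 32.0 CPM, and after MS023 from 23.7 and 22.2 CPM to 31.1 and 36.7 CPM. The 3 h libraries were above the 15 min libraries in each. The log2 fold changes were 0.55 (adjusted p = 0.00432), 0.69 (adjusted p = 0.000392) and 0.56 (adjusted p = 0.00203). The value without inhibitor was lost without Dex 15 min replicate 2 (0.0614) or Dex 3 h replicate 1 (0.104) and with total-count scaling (0.348), that after GSK591 without GSK591 then Dex 15 min replicate 2 (0.107), and that after MS023 without MS023 then Dex 3 h replicate 2 (0.0835). Against untreated cells (29.3 and 31.6 CPM) the 3 h value of 0.34 did not pass (adjusted p = 0.0966). From 15 min to 3 h after MS023, MXD3 was also called higher, at 0.37 (adjusted p = 0.0392), and MNT lower, at -0.44 (adjusted p = 0.0148). The MXD3 value was lost without each of the 4 libraries (0.0549 to 0.317), with DESeq2 (0.138) and with total-count scaling (0.186). The MNT value was lost without replicate 1 of the 15 min group (0.134) or of the 3 h group (0.356), with DESeq2 (0.0551) and with total-count scaling (0.514).

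**Figure D2:**
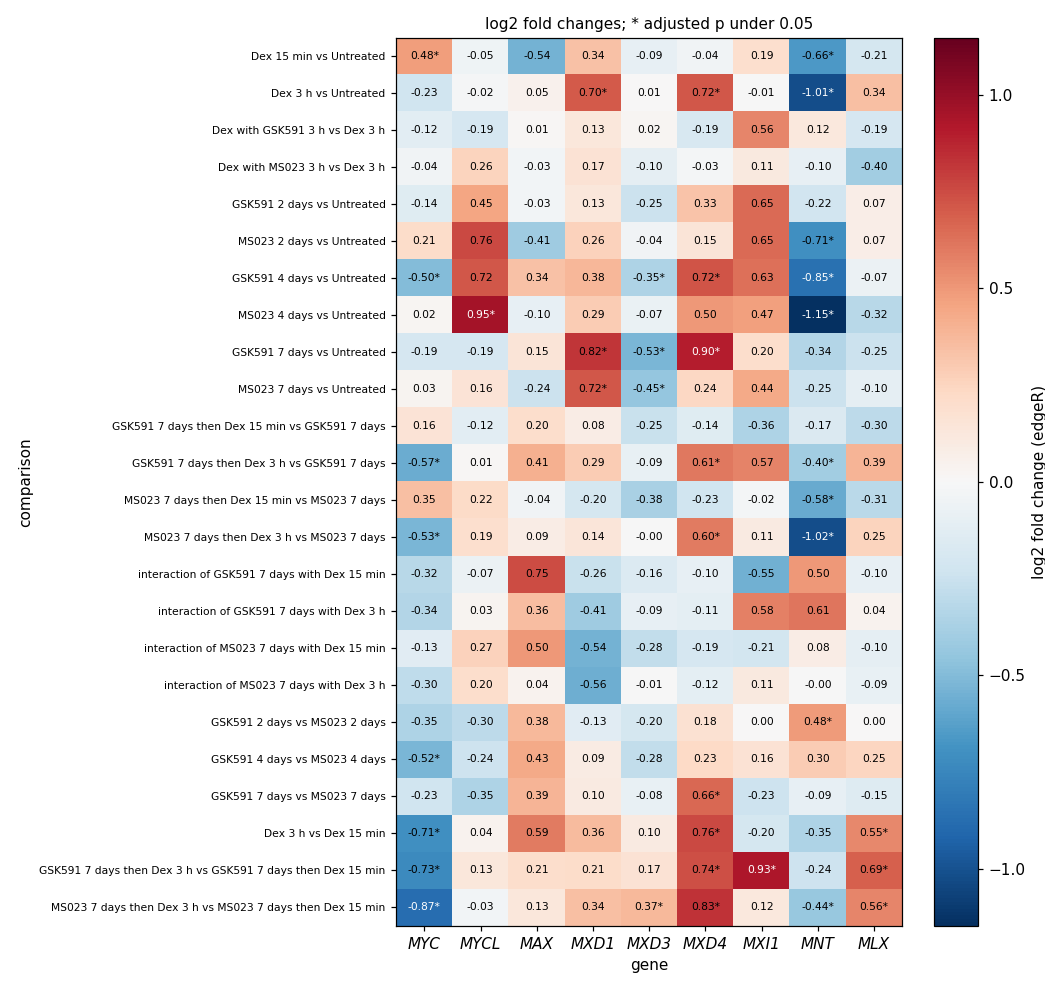
log2 fold changes of the 9 genes (columns) in 24 comparisons (rows), with an asterisk where the edgeR adjusted p was under 0.05; red is higher and blue lower in the group named before "vs". MNT holds 9 asterisks on lower values, and the column of MAX holds none.

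The counts of called genes differed by comparison. After 2 days of inhibitor 0 of the 9 were called under GSK591, where 5.64% of all tested genes were called by edgeR, and 1 under MS023, where 10.4% were. For GSK591, 1 gene had an unadjusted p under 0.05 and DESeq2 called 0. After 4 days 4 of 9 were called under GSK591 (17.2% of all genes) and 2 of 9 under MS023 (14.2%). At 7 days the counts were 3 under GSK591 (13.2%) and 2 under MS023 (13.6%). The comparisons with untreated cells share its 2 libraries. Between inhibitors 1 of the 9 genes was called at each time, against 2.69%, 6.03% and 9.38% of all genes. The median log2 fold change of the 9 genes lay between -0.20 and 0.34 over all comparisons, and that of all genes was near 0 in each.

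No member was called when an inhibitor given together with Dex for 3 h was compared with Dex alone. MYC was at 68.8 and 74.2 CPM with GSK591 and 82.6 and 68.6 CPM with MS023, against 76.4 and 78.6 CPM with Dex alone. MNT was at 29.1 and 23.9 CPM and at 21.3 and 24.1 CPM, against 25.6 and 23.0 CPM. By edgeR 0 of the 9 genes were called in either comparison, where 0% and 0.196% of all tested genes were called. In each, 1 gene had an unadjusted p under 0.05, MXI1 with GSK591 (log2 fold change 0.56, adjusted p = 0.859) and MLX with MS023 (-0.40, adjusted p = 0.162), and DESeq2 called 0 in both.

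Whether 7 days of inhibitor changed the response to Dex was tested by an interaction, the Dex response after the inhibitor minus that without it. By edgeR 0 of the 9 genes were called in the 4 interactions, where 0.00436% of all tested genes were called at 15 min and 0.223% at 3 h for either inhibitor. At an unadjusted p under 0.05 there were 2 genes for GSK591 at each time and 1 for MS023 at each time, and DESeq2 called 0. MNT had the smallest unadjusted p of the 9 genes with GSK591 at both times, with interactions of 0.50 at 15 min (SE 0.18, unadjusted p = 0.00754, adjusted p = 0.539) and 0.61 at 3 h (SE 0.18, unadjusted p = 0.00157, adjusted p = 0.174). For MYC the interactions at 3 h were -0.34 (SE 0.16) with GSK591 and -0.30 (SE 0.16) with MS023, with adjusted p = 0.541 and 0.607. The difference in the response of MNT to Dex at 3 h between cells with GSK591 (-0.40) and without it (-1.01) was therefore not shown. After 7 days of GSK591, 15 min of Dex called 0 of the 9 genes by edgeR, where 2.09% of all tested genes were called, with 1 gene at an unadjusted p under 0.05 and 0 by DESeq2.

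Other genes of the network were examined in a list of partners, corepressors and targets of the MLX branch. Of its 8 genes 7 were tested, and MYCN was not. MLXIPL, a glucose-sensing MLX partner, rose after 2 and 4 days of MS023, by 0.72 and 1.03, and after 4 days of GSK591, by 0.93 (edgeR adjusted p = 0.0233, 0.000254 and 0.00114). Its mean was 4.76 CPM in untreated cells and 9.75 CPM after 4 days of MS023. TXNIP and ARRDC4, which restrain glucose uptake and are targets of MLX complexes, were called higher after 4 and 7 days of both inhibitors at means under 5 CPM, and are named outside the rule for named genes after their values were seen. The list had 3 genes called higher after 4 days of either inhibitor and 2 after 7 days, and 0 called lower at those times. Over all tested genes, calls in either direction made up 17.2% and 14.2% at 4 days of GSK591 and MS023. At 7 days they made up 13.2% and 13.6%. Of these calls, 51.8% and 55.1% at 4 days and 50.6% and 52.3% at 7 days were higher. With total counts as the only scaling 5 and 6 of the 7 genes were called higher at 4 days of GSK591 and MS023, and 2 and 7 at 7 days. Under that scaling 93.5% and 99% of all calls at 4 days were higher, and 49.9% and 99.5% at 7 days. The shares of all genes called under it are not given here, so these counts cannot be set against them. With TMM scaling the list's median log2 fold change was 0.31 at 4 days of GSK591 and 0.14 at 4 days of MS023. Dex alone called 0 of the 7 genes by edgeR at 15 min and at 3 h, with 0 and 2 genes at an unadjusted p under 0.05 and no call with either other scaling.

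Genes that control MYC stability or act as its cofactors, 16 in all, were mostly not called. RUVBL2, a chromatin-remodelling ATPase, was lower after 3 h of Dex (-0.62) and at every time of GSK591 (-0.58, -0.74 and -0.50). AURKA, a mitotic kinase that also stabilises MYC proteins, fell after 4 and 7 days of GSK591 by 0.91 and 1.08 and after 7 days of MS023 by 0.82. PIM1, a kinase that modifies MYC, rose after 7 days of GSK591 by 0.61 and then fell with 3 h of Dex by 1.11 (edgeR adjusted p = 8.86e-09), from a mean of 38.8 to 17.9 CPM. After 7 days of MS023 PIM1 had means of 34.8 CPM before and 41.7 CPM after the same Dex treatment, a change that was not called. The interaction of GSK591 with 3 h of Dex was -1.20 for PIM1 (adjusted p = 0.000546), and -1.16 and not called (1.00) under total-count scaling. Under total-count scaling RUVBL2 turned to 0.24 at 4 days of MS023 and AURKA to 0.21 at 7 days of MS023, while PIM1 after GSK591 and Dex stayed called at -0.91 (adjusted p = 0.00451). The RUVBL2 values at 3 h of Dex and under GSK591 stayed negative and were not called under that scaling. With TMM scaling at most 4 of the 16 genes were called in a comparison with untreated cells, at 7 days of either inhibitor, where 13.2% (GSK591) and 13.6% (MS023) of all genes were. With total-count scaling 8, 9 and 12 of the 16 were called higher at 2, 4 and 7 days of MS023. That scaling made 99.2%, 99% and 99.5% of all calls there higher. The shares of all genes called under it are not given here, so these counts cannot be set against them.

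PVT1, the noncoding gene that neighbours MYC, was lower after 3 h of Dex, at a mean of 15.1 CPM (SD 1.17, n = 2) against 24.9 CPM (SD 0.28, n = 2) in untreated cells. Its log2 fold changes were -0.72 at 3 h of Dex, -0.67 and -0.83 at 2 and 4 days of MS023, -0.51 at 4 days of GSK591 and -0.56 at 3 h of Dex after MS023 (edgeR adjusted p = 0.000246, 0.000690, 1.31e-05, 0.00592 and 0.00172). At 15 min of Dex, when MYC was called higher, PVT1 was at a mean of 26.0 CPM and not called. With total counts as the only scaling the values at 2 days of MS023, 4 days of MS023 and 4 days of GSK591 were 0.00, -0.08 and -0.09, and that at 3 h of Dex was -0.56 (adjusted p = 0.161). Of the 5 neighbouring transcripts listed, 2 were tested, and POU5F1B was not called in any comparison.

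Some of the genes known as induced targets of MYC were called lower at each time of both inhibitors with TMM scaling. The part of MYC in these changes was not tested. Of 36 listed genes 35 were tested. After 4 days of GSK591 19 were called lower and 1 higher, where 8.28% of all tested genes were called lower and 8.91% higher, and the list's median log2 fold change was -0.51. After 4 days of MS023, when MYC itself was not called, 14 were lower and 0 higher, where 6.37% of all genes were lower, with a median of -0.36. At 2 days 6 were lower under GSK591 and 4 under MS023, where 2.45% and 4.21% of all genes were, with medians of -0.27 and -0.10. At 7 days 10 and 9 were lower, where 6.52% and 6.51% of all genes were. After 3 h of Dex 7 were lower and 1 higher, where 4.41% and 6.11% of all genes were, with a median of -0.30. With total counts as the only scaling these counts changed to 0 lower and 0 higher at 2 days of GSK591, 0 lower and 14 higher at 2 days of MS023, 0 higher and 6 lower at 7 days of GSK591, 3 lower and 3 higher at 4 days of GSK591, 0 lower and 7 higher at 4 days of MS023, 0 lower and 24 higher at 7 days of MS023 and 0 lower and 1 higher at 3 h of Dex. The list's median turned to 0.38 at 4 days and 0.76 at 7 days of MS023, where that scaling put the median of all genes at 0.74 and 1.02. The shares of all genes called under total-count scaling are not given here, so these counts cannot be set against them. Scaling by DESeq2 size factors left each count within 1 gene.

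TERT, the catalytic subunit of telomerase, and E2F2, a cell cycle factor, fell most in this list. TERT went from a mean of 9.10 CPM (SD 0.19, n = 2) in untreated cells to 2.64 CPM at 4 days and 1.57 CPM (SD 0.90, n = 2) at 7 days of GSK591, by 1.78 and 2.49 on the log2 scale (edgeR adjusted p = 1.53e-06 and 3.44e-08). E2F2 went from 11.3 CPM to 3.29 and 3.09 CPM and dropped by 1.78 and 1.88. Both stayed called under total-count scaling at both times. TCOF1, which supports ribosomal RNA synthesis, fell after 3 h of Dex by 0.61 and after 7 days of GSK591 and MS023 by 1.24 and 0.91, the Dex value not being called under total-count scaling (adjusted p = 0.306). NCL, the nucleolar protein nucleolin, fell after 7 days of MS023 by 1.66, from a mean of 333 to 105 CPM. The MS023 values of TCOF1 and NCL at 7 days were 0.11 and -0.64 under total-count scaling and not called.

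LDHA and ODC1 were the induced targets called most often after Dex. LDHA, lactate dehydrogenase A, rose at 15 min by 0.63 and stayed higher at 3 h by 0.56 (edgeR adjusted p = 8.78e-05 and 0.000103), when MYC was no longer higher. ODC1, the enzyme that starts polyamine synthesis, was called at both Dex times after GSK591. It stood at a mean of 20.0 CPM before Dex, 32.2 CPM at 15 min and 11.9 CPM at 3 h, a rise by 0.69 and then a level lower than before Dex by 0.74 on the log2 scale (adjusted p = 0.00531 and 0.00142). After MS023 ODC1 had means of 24.7, 29.6 and 16.4 CPM, and the 3 h value was -0.59 (adjusted p = 0.00303). Under total-count scaling these 3 values of ODC1 kept their signs and were not called. Without inhibitor its means were 18.1, 21.4 and 15.7 CPM, and neither time was called.

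Some of the genes that MYC is known to repress were called higher in the comparisons with untreated cells. Of 8 listed genes 7 were tested, and CDKN2B, deleted in this line, was not. CDKN1A, the cell cycle inhibitor p21, rose from a mean of 10.7 CPM to 21.4 CPM at 15 min and 31.1 CPM at 3 h of Dex, by 1.00 and 1.53 on the log2 scale (edgeR adjusted p = 1.86e-05 and 3.62e-11). At 15 min 2 of 7 genes were called higher, where 0.96% of all tested genes were, and at 3 h 4 of 7, where 6.11% were. Under the inhibitors the counts called higher were 1 of 7 at 2 days of either inhibitor (5.64% of all genes called for GSK591 and 10.4% for MS023), 1 at 4 days of GSK591 (17.2%) and 2 at 4 days of MS023 (14.2%). At 7 days they were 3 under GSK591 (13.2%) and 4 under MS023 (13.6%). These shares for the inhibitors count calls in both directions. Of those calls, 56.6% were higher under GSK591 and 59.5% under MS023 at 2 days. At 4 days 51.8% and 55.1% were higher, and at 7 days 50.6% and 52.3%. With total-count scaling 5, 6 and 7 of the 7 were called higher at 2, 4 and 7 days of MS023, where it made 99.2%, 99% and 99.5% of all calls higher. CDKN1A was at 20.6, 24.0 and 28.4 CPM after 2, 4 and 7 days of GSK591, and higher than under MS023 at each of these times, by 0.73, 0.93 and 0.77 (adjusted p = 0.00216, 6.69e-06 and 8.89e-05). Under total-count scaling these differences were 0.35, 0.60 and -0.25, none called. Total-count scaling gave 2 and 4 genes called higher for Dex at 15 min and 3 h, where it made 99.6% and 81.9% of all calls higher. The shares of all genes called under total-count scaling are not given here, so its counts cannot be set against them. CDKN1A, GADD45A, GADD45B and NDRG1 are also known as genes that glucocorticoids or stress signals raise, so the list's name does not describe all their regulation.

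**Figure D3:**
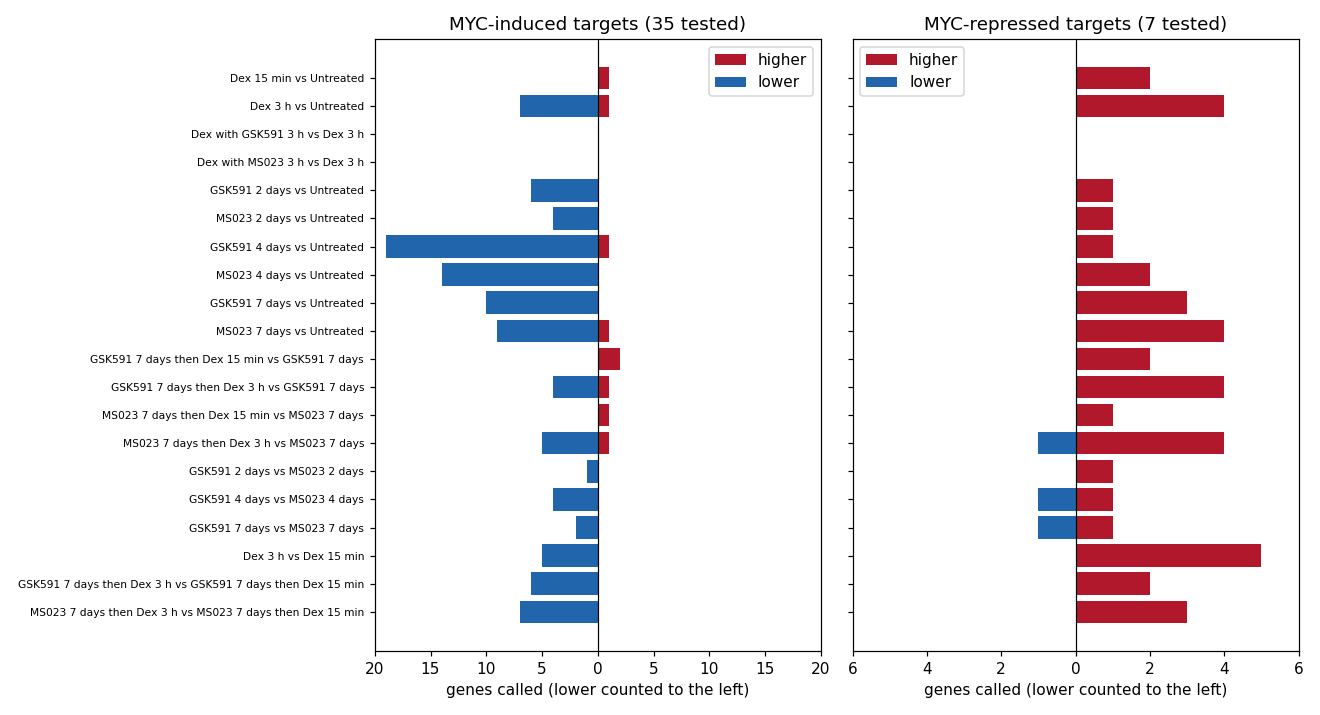
Number of genes called higher (red, to the right) and lower (blue, to the left) in 20 comparisons (rows) for 35 induced and 7 repressed MYC targets. The longest bar to the left is 19 induced targets after 4 days of GSK591, and the bars of repressed targets point mainly to the right, with 4 called higher after 3 h of Dex.

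Some genes outside the network had group means that followed those of a member closely. Over the 15 group means and 11117 genes of at least 5 CPM, the genes most like MYC included the ribosomal protein genes RPL36A and RPS23 (Pearson r 0.927 and 0.908 on log2 CPM). MXD4 was most like TNK1, PLLP and C3 (r 0.946, 0.940 and 0.924), and MNT like VPS9D1 (0.887). Within the network, the strongest pair was MYC with MXD4, at r = -0.863, followed by MAX with MXD4 at 0.817 and MYC with MAX at -0.796. The points share libraries and depth, and the genes named were the highest of all those searched, so the coefficients are a description only.

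The authors' deposited tables give their own DESeq2 comparisons with untreated cells for 8 of the 9 genes. In the 8 comparisons with untreated cells that were also fitted here, 15 of 64 gene and comparison pairs were called both in the authors' deposited tables and here, and all 15 had the same sign. The authors' deposited tables called 7 further pairs and 1 pair was called here alone, MXD3 at 7 days of MS023. The 7 included MYC at 3 h of Dex and, higher, at 2 days of MS023 (0.45, adjusted p = 0.000453). MNT was lower at 7 days of GSK591 (-0.47, adjusted p = 0.000122) and of MS023 (-0.31, 0.0104). MAX was higher at 4 days of GSK591 (0.30, 0.0463) and MXI1 at 2 days of MS023 (0.52, 0.0464). The last was MXD4, higher at 4 days of MS023 (0.39, 0.0376). In these 8 comparisons the authors' tables called from 1.95% (Dex 15 min) to 15.4% (GSK591 4 days) of their 28873 genes. Here the shares ran from 1.26% to 17.2% of tested genes, in the same 2 comparisons. In the authors' deposited table MYC had a log2 fold change of 0.78 at 15 min of Dex (adjusted p = 4.94e-10) and of -0.64 at 3 h (adjusted p = 6.74e-07), the latter not called from the counts. After 7 days of GSK591 and 3 h of Dex the authors' deposited table gives -1.36 for MYC, 1.48 for MXD4 and -1.23 for MNT against untreated cells. MAX was called higher in that group (0.29, adjusted p = 0.0488). It was also called higher with Dex and MS023 together (0.36, 0.0152) and with 3 h of Dex after MS023 (0.30, 0.0337). At 15 min of Dex the authors' value for MAX was -0.012 (0.991). Apart from these groups and 4 days of GSK591, MAX was not called in the authors' tables. The mean level in the authors' deposited tables was 5.21 times the mean count for MAX and 0.310 times it for MXD3, so the authors' values come from another counting. MAX, with exons over 4.59% of its length, and MXD3, with 40.4% of exonic bases shared with other genes, are the 2 members that differ most. MXI1, with exons over 5.78% of its length, had a ratio of 0.922. MLX, with 18.1% of exonic bases shared, had a ratio of 0.532. The cause of these differences was not tested.

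**Figure D4:**
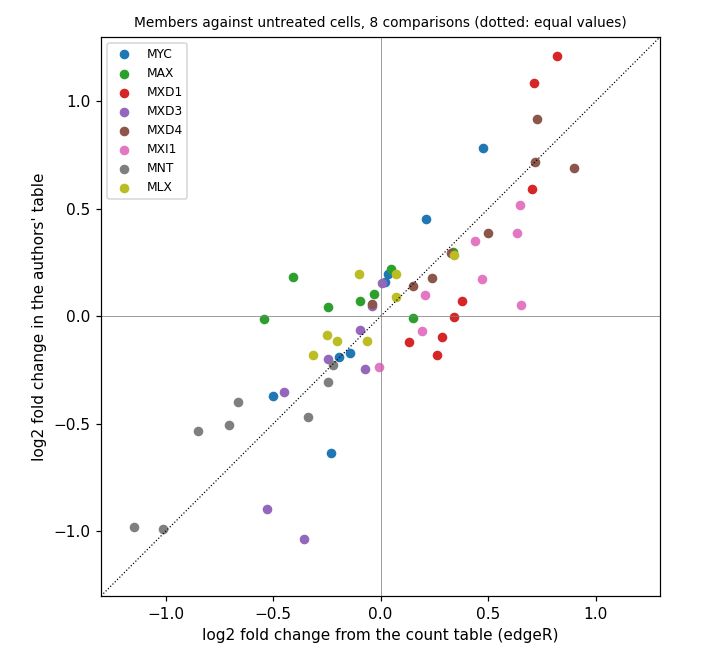
log2 fold change in the authors' deposited tables (vertical axis) against that from the count table (horizontal axis) for 8 genes in 8 comparisons with untreated cells; the dotted line marks equal values. MXD3 falls below the line after 4 and 7 days of GSK591, at -1.04 and -0.90 in the authors' tables, and MNT lies near the line at 3 h of Dex, at -0.99.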

How the data were processed

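PRO-seq libraries of 30 samples in 15 groups of 2 were analysed. The authors deposited 1 table of raw counts per gene, with whole numbers and no normalization. Subread and featureCounts 2.0.1 and the build hg38 are named in the submitters' processing notes, and the strand setting and feature type are not given in the sources used here. The authors also deposited 14 tables of comparisons with untreated cells, per the file headers in DESeq2's format, with a mean normalized signal, log2 fold changes with standard errors, and p-values with adjusted p-values.

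Counts were tested with edgeR 4.0.16 (quasi-likelihood, robust, TMM scaling) in R 4.3.3. One fit held all 15 groups, with 15 residual degrees of freedom. Genes passed filterByExpr with a minimum count of 10 and a minimum total of 15, leaving 22919 genes, and p-values were adjusted by Benjamini and Hochberg over them. The scripts were tested on simulated data.

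The 9 members and the gene lists were chosen with earlier results of these data known. Of each list, at most 4 called genes per comparison, those of largest change with a mean of at least 5 CPM, were named. Comparisons of 3 h with 15 min of Dex were added after the values were seen. Alternatives were DESeq2 1.42.0, no filter, DESeq2 size factors, scaling by total counts alone, the compared groups alone, a replicate block, removal of mitochondrial and ribosomal RNA genes, and each library left out.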

Additional observations from a re-analysis of the deposited data

How the results depend on the processing

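Of 39 called member values, DESeq2 kept 32, DESeq2 size factors 39, no filter 37, the compared groups alone 39, the replicate block 39, removal of mitochondrial and ribosomal RNA genes 39 and total counts as the only scaling 18. Over 105 pairs of groups the correlation of the deviations of same-numbered samples ran from -0.451 to 0.487 with a median of 0.0214, so the numbers do not pair the samples throughout. No call among the 39 changed under the replicate block, and 26 were lost without at least 1 replicate. Total counts turned MXD3 to 0.052 at 4 days of GSK591 and 0.56 at 7 days of MS023, and MXD4 to -0.38 between inhibitors at 7 days, and the cause was not tested. With total counts the number of members called was 1 for Dex 15 min, 7 and 6 for MS023 at 2 and 4 days, 1 for GSK591 and 9 for MS023 at 7 days, 8 between inhibitors at 7 days, 1 for Dex 3 h after either inhibitor, 0 for Dex 15 min after MS023, 1 for Dex 3 h against 15 min and 3 for the same after MS023. With the compared groups alone it was 1 for GSK591 and 3 for MS023 at 2 days, 4 for MS023 at 4 days, 2 for Dex 15 min after MS023 and 2 between inhibitors at 2 days. With DESeq2 it was 1 for Dex 3 h after GSK591, 0 between inhibitors at 2 days and 3 for Dex 3 h against 15 min after MS023. Leaving out 1 replicate gave 0 to 2 for Dex 15 min, 1 to 3 for Dex 3 h, 0 to 1 for Dex with MS023, 2 to 3 for GSK591 and 1 to 2 for MS023 at 4 days, 2 to 3 and 0 to 2 at 7 days, 1 and 2 to 3 for Dex 3 h after GSK591 and MS023, 0 to 1 for Dex 15 min after MS023, 0 to 1 between inhibitors at each time, and 1 to 3, 2 to 4 and 3 to 4 for Dex 3 h against 15 min without inhibitor, after GSK591 and after MS023. The shares of all genes called under these settings are not given here, so the counts of members cannot be set against them. Total counts put the median log2 fold change of all genes at 0.68, 0.74 and 1.02 for 2, 4 and 7 days of MS023. Of all calls there, 99.2%, 99% and 99.5% were higher. A group left with 1 library was assumed to vary like the other groups. Depth limits MYCL, MXI1 and MAX most, with as few as 18, 34 and 35 counts in a library.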
